A study of Mus musculus with 12 samples.

Results

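Of 83727 accessible regions merged from the peak lists of 12 ATAC-seq libraries of mouse lung alveolar type II (AT2) cells, 86 (0.103%) were called in CT26 lungs and in no 4T1 lung. A region was a member if a peak overlapped it in at least 3 of the 6 CT26 libraries, including at least 1 CT26 Distal library, and in none of the 6 4T1 libraries. The members were short and weak, as were the regions that the same rule with the models exchanged found in 4T1 only. Of the 86 members, 32 lay in 7 clusters of neighbouring members. The largest clusters sat in arrays of gene copies or pseudogenes: beside the defensin genes of chromosome 8, beside Sp110, Sp140 and Sp100 on chromosome 1, among the Speer genes of chromosome 5 and among zinc finger genes of chromosome 4. The other 54 members were scattered singly. Among them were a region in the ciliary gene Nphp4 that all 6 CT26 libraries held, and regions at the starts of Prtg, Gbx2, Map7d3, Ccdc184 and Cwh43. Since the rule itself sets CT26 against 4T1, the difference between the models at the members is a description and was not tested.

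ATAC-seq marks open chromatin: the Tn5 transposase cuts accessible DNA and tags it for sequencing, and a peak caller lists stretches with more cuts than their surroundings. AT2 cells make and secrete surfactant and act as progenitors that renew the alveolar epithelium after injury. Most open regions of a cell type lie at promoters and enhancers and recur from library to library. Tandem arrays of gene copies, such as those of KRAB zinc finger, defensin and Speer genes, hold many near-identical stretches of sequence, and reads from such stretches are hard to place on a single copy. How multiply mapping reads were handled is not given in the sources used here, so a member in such an array is uncertain as to which copy was open.

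The mice were BALB/c, 6 to 8 weeks old, and carried labelled tumour cells of a syngeneic line, 4T1 (mammary carcinoma) or CT26 (colon carcinoma). Lungs were taken 7 days after 800000 tumour cells were injected into the tail vein. AT2 cells, 50000 per library, were sorted by flow cytometry either from the metastatic niche, the tissue next to tumour cells, or from distal lung. The 4 groups (4T1 Distal, 4T1 Niche, CT26 Distal and CT26 Niche) had 3 independent samples each, and each sample pooled 5 lungs. No tumour-free mice are among the samples. A model here is a single tumour line, so the tumour type and the line cannot be told apart.

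The lists held 56330 to 66911 peaks in 4T1 libraries and 42067 to 55529 in CT26 libraries, and covered 42.0 to 51.9 Mb and 31.4 to 44.7 Mb. Reads were not counted in them. The same number of reads was planned for all 12 libraries, but the depth reached is unknown. A region without a peak may be open below the caller's threshold. The label AT2 was checked at the gene loci (gene and 10 kb on each side) of 19 AT2 genes: all 19 had a peak in all 12 libraries. Such a peak does not by itself tell lung cell types apart, since the same held for all 16 alveolar type I genes, all 7 ciliated cell genes and 9 of 12 endothelial genes. It held for fewer genes of the other lung and blood cell lists: 4 of 12 macrophage, 5 of 12 lymphoid, 3 of 8 neutrophil and 3 of 12 fibroblast genes. For club and basal cells it held for 3 of 6 and 4 of 7 genes. Length under peaks ranged over the libraries from 5.19 to 7.43 kb at Sftpc and from 2.94 to 5.08 kb at Sftpb, genes of surfactant proteins. It ranged from 4.01 to 8.37 kb at Abca3, the lipid transporter of lamellar bodies, and from 3.84 to 5.97 kb at Nkx2-1, the lung lineage factor. The leukocyte gene Ptprc had a peak in CT26 Niche 1 (0.685 kb) and CT26 Niche 2 (0.245 kb) and in no other library. The endothelial gene Pecam1 had one in all 12, with 2.48 to 2.66 kb in 4T1 Distal, 4.47 to 6.67 kb in 4T1 Niche and 0.747 to 3.06 kb in CT26 libraries. Of 12 intestinal genes listed for the CT26 line's tissue of origin, 8 had a peak in every library, while Krt20 and Fabp1 had none in any. Their summed length was 15.7 to 17.1 kb in CT26 Distal, 16.8 to 20.2 kb in CT26 Niche, 20 to 21.9 kb in 4T1 Distal and 23.1 to 24.0 kb in 4T1 Niche. No locus of these intestinal genes held a member, but only 56 loci did among all 21631 protein-coding genes.

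Promoter sequences are shown for 6 members that covered the start of a gene, since their position ties these members to a gene. Each window runs from 250 bases before to 50 after an annotated start, 5′ to 3′ on the gene's strand, from RefSeq on GRCm38.p6, and capitals mark the bases inside the member. The lncRNA A530040E14Rik (chr1:85105843-85106142, plus strand) has its start in the one clustered member that all 6 CT26 libraries held. Prtg (chr9:72807024-72807323, plus strand) encodes protogenin, a cell surface protein of the embryo. Gbx2 (chr1:89931127-89931426, minus strand) encodes a homeobox factor of the early nervous system. Map7d3 (chrX:56822276-56822575, minus strand) encodes a microtubule-binding protein, Ccdc184 (chr15:98167556-98167855, plus strand) a coiled-coil protein, and Cwh43 (chr5:73405828-73406127, plus strand) a protein of GPI anchor lipid remodelling.
A530040E14Rik: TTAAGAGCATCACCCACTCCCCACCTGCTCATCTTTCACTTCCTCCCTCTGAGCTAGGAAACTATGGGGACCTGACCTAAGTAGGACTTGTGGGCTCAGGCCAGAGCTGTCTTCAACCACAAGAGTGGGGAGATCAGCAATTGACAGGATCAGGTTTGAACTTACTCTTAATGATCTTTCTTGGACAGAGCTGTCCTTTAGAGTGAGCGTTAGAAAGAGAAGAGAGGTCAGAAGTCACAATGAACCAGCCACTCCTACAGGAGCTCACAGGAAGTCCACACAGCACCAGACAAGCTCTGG
Prtg: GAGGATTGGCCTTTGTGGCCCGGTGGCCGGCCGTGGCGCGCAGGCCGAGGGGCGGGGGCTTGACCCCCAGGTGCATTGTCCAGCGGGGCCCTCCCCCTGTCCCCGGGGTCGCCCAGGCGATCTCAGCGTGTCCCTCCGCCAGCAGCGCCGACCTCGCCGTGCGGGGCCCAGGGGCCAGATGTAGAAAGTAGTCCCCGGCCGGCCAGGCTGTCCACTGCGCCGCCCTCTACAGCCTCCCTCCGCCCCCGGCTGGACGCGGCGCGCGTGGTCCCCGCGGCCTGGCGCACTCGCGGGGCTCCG
Gbx2: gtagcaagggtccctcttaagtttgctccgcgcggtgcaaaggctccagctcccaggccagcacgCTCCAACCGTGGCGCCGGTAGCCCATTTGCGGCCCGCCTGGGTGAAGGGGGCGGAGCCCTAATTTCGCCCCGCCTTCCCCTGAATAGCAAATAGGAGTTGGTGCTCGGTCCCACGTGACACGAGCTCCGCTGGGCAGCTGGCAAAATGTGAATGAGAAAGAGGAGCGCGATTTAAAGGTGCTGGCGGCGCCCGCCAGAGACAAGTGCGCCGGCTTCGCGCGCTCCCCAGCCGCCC
Map7d3: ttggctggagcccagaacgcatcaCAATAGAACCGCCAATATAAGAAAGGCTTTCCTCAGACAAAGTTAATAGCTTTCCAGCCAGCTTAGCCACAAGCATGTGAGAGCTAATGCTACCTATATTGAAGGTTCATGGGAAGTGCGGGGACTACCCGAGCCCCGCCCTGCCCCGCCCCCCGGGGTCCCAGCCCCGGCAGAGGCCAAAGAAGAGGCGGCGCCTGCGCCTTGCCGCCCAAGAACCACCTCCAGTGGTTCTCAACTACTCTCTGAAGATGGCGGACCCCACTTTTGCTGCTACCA
Ccdc184: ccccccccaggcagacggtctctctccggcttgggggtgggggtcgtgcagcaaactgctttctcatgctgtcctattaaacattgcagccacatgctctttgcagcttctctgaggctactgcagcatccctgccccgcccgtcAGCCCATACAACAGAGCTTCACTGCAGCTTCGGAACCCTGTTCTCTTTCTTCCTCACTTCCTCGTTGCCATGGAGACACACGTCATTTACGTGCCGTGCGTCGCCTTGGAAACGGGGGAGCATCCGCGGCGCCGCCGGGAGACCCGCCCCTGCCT
Cwh43: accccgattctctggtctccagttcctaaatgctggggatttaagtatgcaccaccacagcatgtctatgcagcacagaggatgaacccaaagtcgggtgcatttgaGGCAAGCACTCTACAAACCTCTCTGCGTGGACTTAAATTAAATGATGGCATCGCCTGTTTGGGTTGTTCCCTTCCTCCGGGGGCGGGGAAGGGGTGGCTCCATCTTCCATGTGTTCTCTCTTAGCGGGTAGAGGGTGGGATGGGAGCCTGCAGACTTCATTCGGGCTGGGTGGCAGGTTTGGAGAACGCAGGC

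All 300 bases of the A530040E14Rik and Prtg windows lay inside their members, 276 of the Map7d3 window, 235 of Gbx2, 193 of Cwh43 and 155 of Ccdc184. The Prtg window held 35 CG dinucleotides and 76.7% G and C, Gbx2 held 27 and 64.7%, Ccdc184 19 and 61.0%, Map7d3 13 and 57.3%, and Cwh43 9 and 54.3%. The A530040E14Rik window stood apart with 1 CG and 49.7%. The median over 32851 promoter windows was 7 CG and 52.7%, so of the 6 windows all but that of the lncRNA were above both medians. The GC box bound by KLF and SP factors (GGGCGG, either strand) occurred in 5 of the 7 member windows and in 35.7% of all windows. The RUNX string TGTGGT occurred in 2 (16.8% of all), the NRF1 string GCGCANGC in 2 (9.95%) and the E-box CACGTG in 1 (7.15%). The AP-1 string TGANTCA, in 7.81% of all windows, and the NKX2-1 string CACTTGA, in 3.06%, were not in the 7 windows, nor were the ISRE core, the NF-kB and the glucocorticoid receptor motifs. The seventh window belongs to the lncRNA Gm45086 and held 5 CG, below the median, and 52.7% G and C, at the median. With 7 windows these counts are descriptions.

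Most members were held by the smallest number of libraries that the rule allows. Exactly 3 CT26 libraries held 64 members, 4 held 17, 5 held 3 and 6 held 2. Their median length was 546.5 bp (191 to 1604), against 768 bp over all merged regions and 1149 bp over the 35222 regions held by all 12 libraries. It was 501 bp over the 3013 regions that the same rule with the models exchanged found in 4T1 only. Peak strength was read as the percentile of the authors' deposited −log10 p within each list, averaged over the lists that called the region. The median member stood at percentile 12.4 (1.44 to 53.8), against 29.7 over all merged regions and 14.9 over the 4T1-only regions. Regions held by exactly 3 CT26 libraries, a distal one among them, and by at least 1 4T1 library were stronger, at 19.9 (3296 regions). The highest deposited fold enrichment of a member over its local background was between 2.29 and 5.51, the authors' own value for each peak. Just outside the rule lay 262 regions held by exactly 2 CT26 libraries, a distal one among them, and no 4T1 library. Their median percentile was 9.25 and their median length 392.5 bp. A further 185 met the CT26 condition and were held by exactly 1 4T1 library. Their median percentile of 12.3 and median length of 530 bp were close to those of the members. Since the sorted cells were measured in bulk, fewer cells with a region open and a weaker opening in each cell cannot be told apart.

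**Figure D1:**
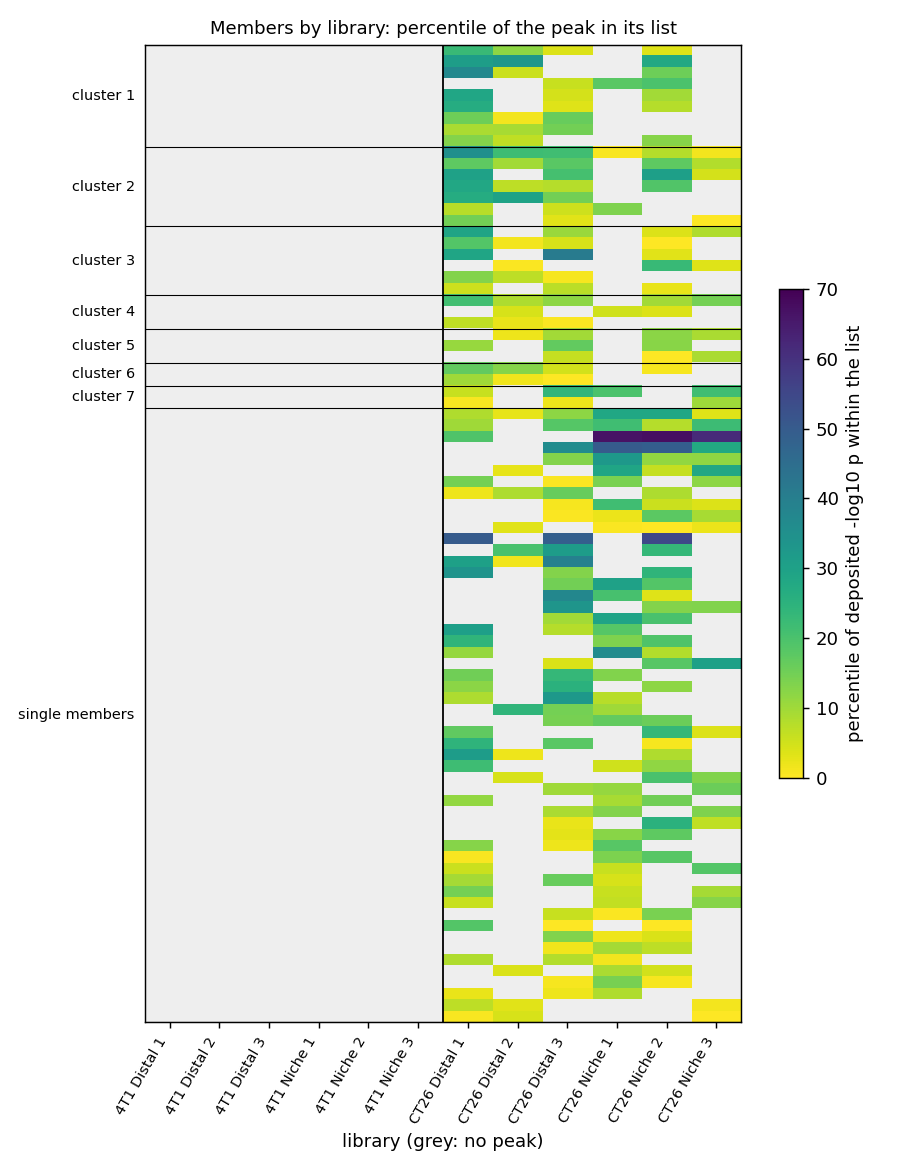
Each row is 1 of the 86 members, grouped by cluster and then single members, and each column 1 of the 12 libraries; the colour gives the percentile of the peak's deposited −log10 p within its list, and grey means no peak. The 6 4T1 columns are empty by the rule, over clusters 1 to 4 combined the distal libraries and CT26 Niche 2 fill more cells than CT26 Niche 1 and 3, and the darkest cells, from 61.7 to 67.5, are the niche peaks of the member near Sowahb.

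The 2 members held by all 6 CT26 libraries differed in where they were strong. The Nphp4 member (chr4:152484031-152484742) lies inside the gene of nephrocystin 4, a protein of the ciliary transition zone. The nearest end of any protein-coding gene, that of the neighbour Kcnab2, was 6482 bp away. The length under peaks there was 301, 500 and 356 bp in CT26 Distal 1 to 3 and 478, 383 and 530 bp in CT26 Niche 1 to 3, and the percentiles were 8.21, 2.60 and 11.8, then 28.2, 28.2 and 3.45. All libraries thus carried a peak of like length, and 2 niche libraries the strongest ones. The member with the start of the lncRNA A530040E14Rik (chr1:85105271-85106302), inside the gene model A530032D15Rik, had 436, 291 and 769 bp in CT26 Distal and 268, 888 and 273 bp in CT26 Niche. Its percentiles were 35.0, 21.7 and 21.5 in distal and 0.686, 7.82 and 1.14 in niche libraries, so each distal value was above each niche value. This model gene is named because the count is 2, after its values were seen.

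The 3 members held by 5 libraries were a pair in clusters and 1 single region. The Zfp600 member (chr4:146166994-146168551, inside a KRAB zinc finger gene) had 1503, 476 and 1457 bp under peaks in CT26 Distal and 0, 1152 and 396 bp in CT26 Niche. It was long in CT26 Distal 1, CT26 Distal 3 and CT26 Niche 2 and absent from CT26 Niche 1. The member chr1:84962821-84964212, 27540 bp from Slc16a14, a monocarboxylate transporter family gene, had 882, 1291 and 883 bp in distal and 0, 576 and 1263 bp in niche libraries. The single member chr2:75076564-75076955 lies 199816 bp from the nearest end of a protein-coding gene, Mtx2, which encodes a protein of the mitochondrial outer membrane. It had 202, 0 and 187 bp in distal and 222, 390 and 210 bp in niche libraries.

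The strongest members were short and single. The member chr5:93035273-93035520, 248 bp long and 5603 bp from the ankyrin repeat gene Sowahb, reached percentiles 66.6, 67.5 and 61.7 in the 3 niche libraries and 19.2 in CT26 Distal 1. It was called in no other distal library, so its niche peaks were above the median peak of their lists and its distal peak well below. The Itgb6 member (chr2:60698133-60698356, inside the gene) reached percentiles 49.9, 49.0 and 27.6 in CT26 Niche and 35.9 in CT26 Distal 3 alone, so its distal peak lay within the niche range. Itgb6 encodes the integrin chain that with the αv chain activates latent TGF-β on epithelial cells, and it was listed here among genes of the transitional alveolar state. The P4ha2 member, named after its values were seen, was held by exactly 3 libraries and stood at a mean percentile of 51.2. P4ha2 encodes a collagen prolyl hydroxylase subunit, and the member lay 8556 bp from its end.

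Of the other 15 members held by 4 libraries, 10 were nearest to a gene with a name and 5 to a gene model. The Ccdc169 member (chr3:55152230-55153184, inside the gene) had 622, 904 and 955 bp in CT26 Distal and 0, 901 and 0 bp in CT26 Niche, and no other peak of any library lay in that locus. The Prtg member (chr9:72806971-72807702) had 0, 0 and 197 bp in distal and 518, 468 and 673 bp in niche libraries, so it was long in each niche library and short in the single distal one. The Adamts6 member (chr13:104288149-104288696, inside the gene of a secreted metalloprotease) had 0, 0 and 244 bp in distal and 548, 425 and 190 bp in niche libraries, where the shortest niche peak was shorter than the distal one. The Prkca member (chr11:108303867-108304346, inside the gene of protein kinase C alpha) had 480, 0 and 178 bp in distal and 402, 0 and 378 bp in niche libraries. The Hhat member lay 27074 bp from the gene of the Hedgehog acyltransferase and had 0, 230 and 0 bp in distal and 378, 1281 and 348 bp in niche libraries. The member 241246 bp from Gcfc2 had 0, 0 and 291 bp in distal and 399, 464 and 279 bp in niche libraries. The member 9629 bp from Baalc, named after its values were seen, had 0, 243 and 0 bp in distal and 299, 295 and 209 bp in niche libraries. Of the 9 single members held by 4 libraries, 7 had a peak in all 3 niche libraries and in 1 distal library, the smallest number of distal libraries that the rule allows. The remaining 8 members held by 4 libraries lay in clusters. Of these, the one 457500 bp from Trim52 (chr14:106593362-106594316) had 819, 0 and 181 bp in distal and 218, 0 and 200 bp in niche libraries. The one nearest to Zfp640 (chr13:66726273-66726925) had 409, 512 and 191 bp in distal and 0, 555 and 0 bp in niche libraries. The one nearest to Spin2f (chrX:31228784-31230155) had 0, 794 and 473 bp in distal and 0, 393 and 511 bp in niche libraries, so both sites held each of these 3 members.

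The number of members held per library overlapped between the sites. CT26 Distal 1, 2 and 3 held 57, 31 and 64 members, and CT26 Niche 1, 2 and 3 held 43, 59 and 33, so the groups overlapped. The means were 50.7 ± 17.4 (SD, n = 3) in CT26 Distal and 45.0 ± 13.1 in CT26 Niche, a difference of -5.67 (niche minus distal, two-sided exact permutation p = 0.8, the smallest possible being 0.1). These counts use the calls that chose the members, and the rule asks for a distal library, which favours distal. The p-value was therefore not read as evidence on the sites. Without that condition 100 regions qualified, and the niche libraries held 59.0 and the distal ones 50.7 on average (exact permutation p = 0.7). That choice treats both sites alike but rests on the same calls. Clustered members numbered 27, 19 and 27 in distal and 5, 22 and 11 in niche libraries, with means of 24.3 ± 4.62 and 12.7 ± 8.62 (SD, n = 3). Single members numbered 30, 12 and 37 in distal and 38, 37 and 22 in niche libraries, with means of 26.3 ± 12.9 and 32.3 ± 8.96. These splits also use the calls that chose the members, the distal condition included, and no test is read for them. Both overlapped between the sites, and CT26 Niche 2 was nearer to the distal libraries than to CT26 Niche 1 in clustered members.

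**Figure D2:**
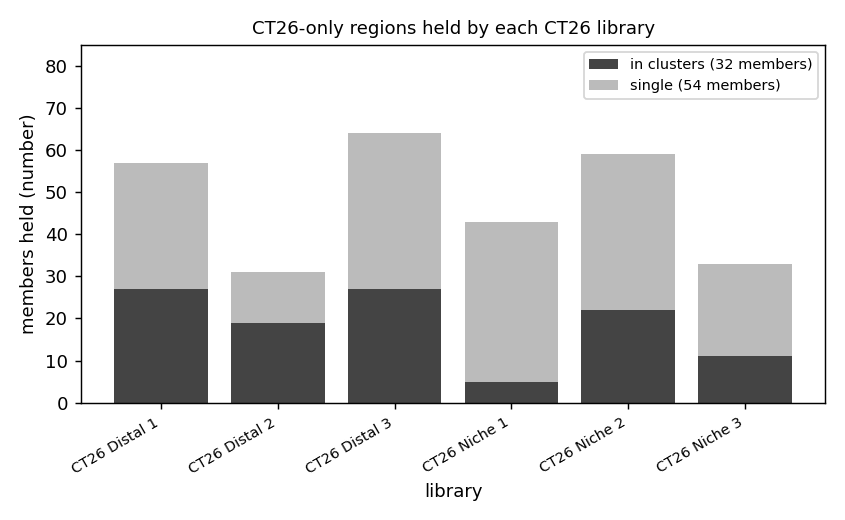
Bars give the number of members held by each of the 6 CT26 libraries (vertical axis, from 0), split into the 32 clustered members (dark) and the 54 single members (light). CT26 Niche 1 held the fewest clustered members, 5, and the most single ones, 38.

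CT26 Distal 3, CT26 Niche 2 and CT26 Distal 1 held the most members. The commonest combinations of libraries were these 3 together and CT26 Distal 3 with CT26 Niche 1 and CT26 Niche 2, with 10 members each. CT26 Distal 1 and CT26 Distal 3 shared 41 members, CT26 Distal 3 and CT26 Niche 2 shared 42, and CT26 Distal 2 and CT26 Niche 1 shared 7. With 1 library left out and at least 3 of the others still required, 43 members were left without CT26 Distal 1, 36 without CT26 Distal 3, 47 without CT26 Niche 2, 55 without CT26 Niche 1, 64 without CT26 Distal 2 and 70 without CT26 Niche 3. Without a single 4T1 library the number rose to between 104 and 138, the highest without 4T1 Niche 1. Without CT26 Distal 1, CT26 Distal 3 and CT26 Niche 2 together, a choice made after the data were seen, 4 regions were left. That setting asks for a peak in each of the 3 CT26 libraries that remain, which by itself lowers the count, and no other 3 libraries were left out for comparison.

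The 7 clusters, sets of members each within 500 kb of the next, spanned 2.78 Mb in all. They held 37.2% of the members, but 0.32% of all merged regions, 0.394% of regions held by exactly 3 CT26 libraries with a 4T1 peak, and none of the 3013 regions that the same rule with the models exchanged found in 4T1 only. The clusters were drawn around the members, so these shares describe them. Regions just outside the rule also lay there more often than regions at large: 8.02% of those held by exactly 2 CT26 libraries and 7.03% of those with exactly 1 4T1 library. At least 5 pseudogenes lay within 250 kb of 31.4% of all members, 65.6% of clustered and 11.1% of single ones. The share was 8.00% of the 4T1-only regions and 8.43% of all merged regions. It was 21.0% of the regions held by exactly 2 CT26 libraries and 11.9% of those with exactly 1 4T1 library. Of the 14 regions held by at least 3 CT26 libraries, but by no distal and no 4T1 library, it was 28.6%.

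Cluster 1 (chr8:19751816-20822719, 9 members) lay between the beta-defensin genes Defb7 and Defb33, which encode antimicrobial peptides of epithelia, over 5 gene models and 11 pseudogenes. Of its 91 merged regions, 51 had a peak in CT26 and none in 4T1, and 1 had the opposite. Length under peaks was 45.8, 27.5 and 35.3 kb in CT26 Distal, 24.2, 36.4 and 19.4 kb in CT26 Niche, 16.6, 16.3 and 16.2 kb in 4T1 Distal and 21.5, 16.9 and 20.1 kb in 4T1 Niche. Every CT26 Distal library was above every 4T1 library, while CT26 Niche 3 was within the 4T1 range.

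Cluster 2 (chr1:84962821-85495178, 7 members) covered 5 gene models and 10 pseudogenes beside Sp110, Sp140 and Sp100, which encode interferon-inducible proteins of nuclear bodies. Of its 83 merged regions, 40 had a peak in CT26 only and 10 in 4T1 only. Length was 25.3, 11.1 and 23.9 kb in CT26 Distal and 12.5, 16.7 and 9.73 kb in CT26 Niche, against 10.4, 13.3 and 4.68 kb in 4T1 Distal and 5.99, 8.56 and 7.80 kb in 4T1 Niche. CT26 Distal 1, CT26 Distal 3 and CT26 Niche 2 stood above all 4T1 libraries, and the other CT26 libraries overlapped them. At the neighbouring Sp110 locus the same 3 libraries had 6.65, 6.13 and 5.09 kb, and the other 9 libraries had 2.88 to 4.11 kb. At Sp140 they had 7.67, 7.22 and 6.70 kb, and the others had 4.65 to 5.98 kb. Sp100 did not follow: CT26 Distal 1 and 3 had 0.946 and 0.775 kb and CT26 Niche 2 had 1.5 kb, against 1.32 to 1.94 kb in 4T1 libraries.

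Cluster 3 (chr5:14953493-15679385, 6 members) lay among the Speer genes, a rodent family of sperm-associated glutamate-rich proteins. Of its 66 merged regions, 45 had a peak in CT26 only and 5 in 4T1 only. Length was 19.5, 8.88 and 15.2 kb in CT26 Distal and 1.52, 12.8 and 2.29 kb in CT26 Niche, against 4.61, 1.32 and 1.29 kb in 4T1 Distal and 1.09, 1.65 and 0.935 kb in 4T1 Niche. The CT26 Niche libraries split: CT26 Niche 2 was in the range of CT26 Distal, and CT26 Niche 1 and 3 were in the range of 4T1.

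Cluster 4 (chr4:146166994-146477513, 3 members) held the KRAB zinc finger genes Zfp600 and Zfp992; proteins of this class bind DNA, often of transposable elements, and recruit silencing complexes. Of 12 merged regions, 10 had a peak in CT26 only. Length was 4.41, 2.39 and 4.34 kb in CT26 Distal and 1.61, 1.36 and 0.396 kb in CT26 Niche, and at most 0.521 kb in any 4T1 library. Cluster 6 (chr13:66718425-66726925, 2 members, 37622 bp and 45470 bp from the zinc finger gene Zfp640) had no 4T1 peak at all, and 0.633, 0.919 and 0.903 kb in CT26 Distal against 0, 0.555 and 0.443 kb in CT26 Niche. Cluster 5 (chrX:31189213-31230155, 3 members) lay beside Spin2f, a gene of the spindlin family of histone readers, with 1.0, 1.5 and 1.32 kb in CT26 Distal, 0.316, 1.88 and 0.967 kb in CT26 Niche and 0 to 0.816 kb in 4T1. Cluster 7 (chr14:106500453-106594316, 2 members) held no protein-coding gene, and its groups overlapped (0.275 to 1.78 kb in CT26 and 0.539 to 1.04 kb in 4T1).

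Over the 7 clusters together, length under peaks outside the members was 82.4, 42.8 and 67.4 kb in CT26 Distal, 39.4, 58.1 and 29.5 kb in CT26 Niche and 23.6 to 33.0 kb in 4T1. CT26 Niche 3 alone among the CT26 libraries was within the 4T1 range. This sum rests mostly on clusters 1 to 3. Outside the members, cluster 5 had 0.8, 0.701 and 0 kb in CT26 Distal against 0 to 0.816 kb in 4T1, cluster 6 had 0, 0 and 0.474 kb in CT26 Distal, and in cluster 7 the groups overlapped. Over all regions of the clusters the means were 77.6 ± 23.2 kb in CT26 Distal and 48.6 ± 19.1 kb in CT26 Niche (SD, n = 3), with overlapping values. Outside the clusters, regions with at least 5 pseudogenes within 250 kb took 8.30 to 8.41% of the covered length in 4T1 libraries and 8.38 to 8.67% in CT26 libraries. With at least 10 pseudogenes the 4T1 range was 0.399 to 0.42%. CT26 Distal 1, 2 and 3 (0.518, 0.446 and 0.465%) and CT26 Niche 2 (0.46%) were above it, and CT26 Niche 1 (0.42%) and CT26 Niche 3 (0.417%) were not. The clusters depended on single libraries: 12 linked members were left without CT26 Distal 1, 11 without CT26 Distal 3, 18 without CT26 Distal 2 and 18 without CT26 Niche 2. The density of pseudogenes differed between the clusters. At least 5 lay within 250 kb of 21 of the 32 clustered members, but members of cluster 3 had 2 or 3 and those of cluster 5 had 4. The part of this density in the clusters was not tested.

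**Figure D3:**
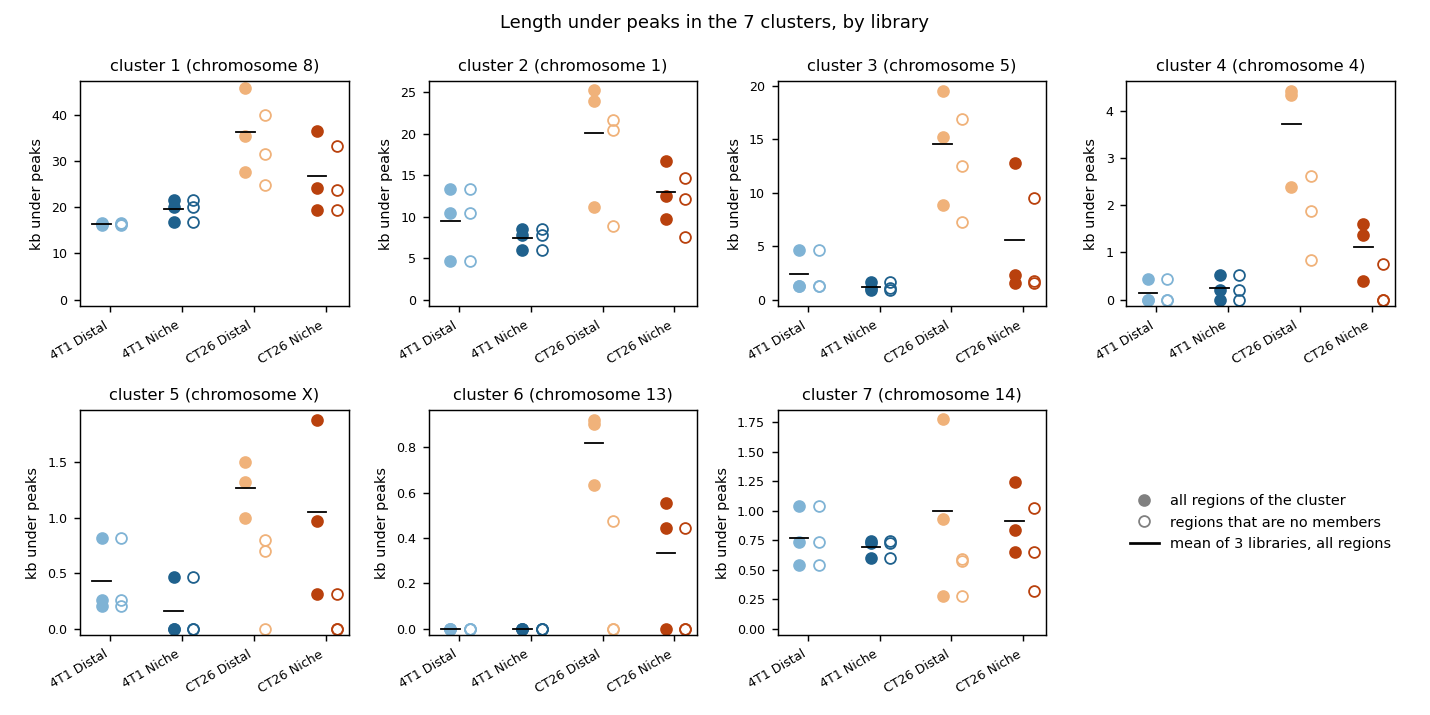
Each panel is 1 of the 7 clusters; points give the kb under peaks in each library by group (filled, all regions of the cluster; open, regions that are no members), and lines are means of 3 libraries. With all regions, every CT26 Distal library is above every 4T1 library in clusters 1 and 3 to 6, where 4T1 lacks the members by the rule; outside the members this does not hold in clusters 5 and 6. In cluster 3 CT26 Niche splits into 1 library at 12.8 kb and a pair at 1.52 and 2.29 kb.

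The 54 single members were spread over X and all autosomes but 14 and 19, with at most 7 on any chromosome (chromosome 2). Of these, 22 lay inside a protein-coding gene, 7 within 1 kb of a gene end and 25 outside. In percent, 40.7, 13.0 and 46.3 of single members fell in these classes, against 48.2, 17.9 and 33.9 of all merged regions and 62.4, 4.68 and 33.0 of the 4T1-only regions. Clustered members lay inside genes in 21.9% and outside in 78.1%. A promoter window was overlapped by 7 of the 86 members (8.14%), against 14.5% of all merged regions, 29.5% of those in all 12 libraries and 1.73% of the 4T1-only regions. The share of the members lay between that of merged regions at large and that of their 4T1 counterparts; it was not tested. Over all members, 21 overlapped a non-coding gene or pseudogene: 11 an lncRNA, 6 a pseudogene, 4 a transcribed pseudogene and 1 the immunoglobulin locus Igh, with the Zfp600 member counted both at an lncRNA and at a pseudogene. The 7 single members at a gene end were those of Prtg, Gbx2, Map7d3, Ccdc184 and Cwh43, a region 487 bp from the end of Oaf and 1 at the model LOC115489115.

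At 4 of the members over gene starts, peaks were weak and scattered over libraries. The Gbx2 member (chr1:89930289-89931361) had 0, 0 and 615 bp in CT26 Distal and 1073, 483 and 0 bp in CT26 Niche. The Map7d3 member (chrX:56821954-56822551) had 197, 0 and 521 bp in distal and 434, 0 and 0 bp in niche libraries. The Ccdc184 member (chr15:98167701-98168122) had 0, 0 and 282 bp in distal and 0, 236 and 310 bp in niche libraries. The Cwh43 member (chr5:73405935-73406446) had 189, 0 and 0 bp in distal and 512, 0 and 268 bp in niche libraries. CT26 Distal 2, the shortest list, held none of these 4 and none was in all niche libraries. These 4 genes are named after their values were seen.

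The nearest merged region with a peak of any 4T1 library lay 567 to 730351 bp from a member, with a median of 5401 bp, and within 1 kb of 5 members. CT26 peaks may set the edges of such a region, so the 4T1 peak itself can lie further away. A region open in 4T1 was thus usually several kb away. At Nphp4 it was 5674 bp away, at the Prtg start 9498 bp, at Ccdc169 32052 bp and at the Itgb6 member 3039 bp.

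Libraries left out of the selection differed between linked and single regions. The rule was applied 36 times, each time without 1 CT26 and 1 4T1 library and with the same minimum of 3 CT26 libraries, and each set (45 to 112 regions) was looked up in the 2 libraries left out. The regions had been merged from all 12 lists, so the libraries left out took part in setting their bounds. Regions with another selected region within 500 kb were held by the CT26 library left out in 39.1% on average (9.35 to 66.2% over libraries) and by the 4T1 library left out in 12.3% (2.66 to 17.7%). The CT26 share was the higher in 30 of 36 pairs. Single regions were held by the CT26 library left out in 29.5% (9.83 to 42.9%) and by the 4T1 library left out in 33.6% (23.8 to 48.9%), with CT26 higher in 12 of 36 pairs. A 4T1 library left out thus held single regions about as often as a CT26 library left out did. For scale, regions that met the CT26 condition and had a peak in a 4T1 library were held by 91.5% of CT26 and 97.7% of 4T1 libraries left out. Each set was chosen for peaks in the CT26 libraries kept and for none in the 4T1 libraries kept. That choice by itself favours the CT26 library left out, so a gap between the models is in part set by the rule. The 36 sets also share libraries and regions, so no test was made. By library, linked regions were held by CT26 Distal 3 in 66.2%, CT26 Distal 1 in 57.5%, CT26 Niche 2 in 45.7%, CT26 Distal 2 in 31.4%, CT26 Niche 3 in 24.2% and CT26 Niche 1 in 9.35%. CT26 Niche 1, whose list was the longest in CT26, was below 5 of the 6 4T1 libraries on linked regions. It held the largest share of single ones within CT26, 42.9%, against 48.9% for 4T1 Niche 1.

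**Figure D4:**
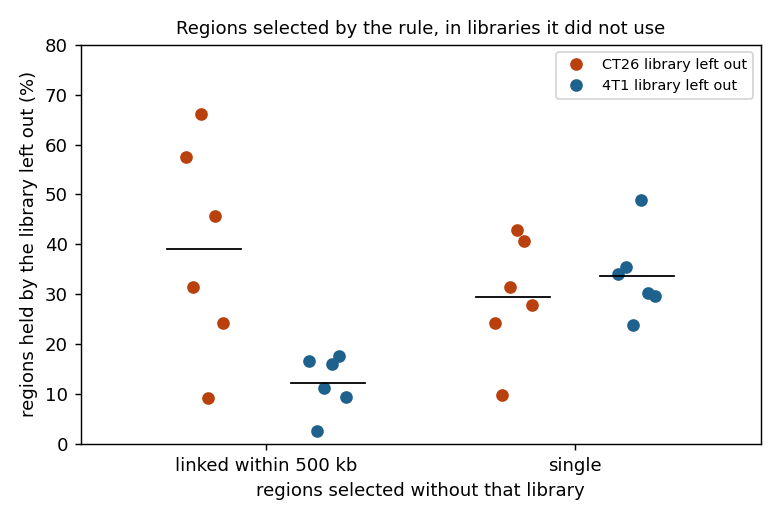
Points give, for each library left out, the mean percent of the regions selected without it that it held (vertical axis), for regions linked within 500 kb and for single regions; lines are means over the 6 libraries of a model. For linked regions 5 of the 6 CT26 points, from 24.2 to 66.2%, are above all 4T1 points, which end at 17.7%; for single regions the models overlap.

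The size of the set depended on how much of each list was used. With the models exchanged, the same rule found 3013 4T1-only regions, 5.07% of the 59379 that met the 4T1 condition, against 0.178% of the 48413 that met the CT26 condition. With the 42067 strongest peaks of each library, the length of the shortest list, 763 regions were CT26 only and 611 were 4T1 only. Of the 86 members, 13 were among the 763, and 299 of the 763 were linked within 500 kb. A deposited −log10 q of at least 2 left 54 CT26-only regions, 20 of them among the 86, and a value of at least 5 left 6, with 1 among the 86. The 4T1-only count was 2998 and 3060 under these thresholds. At least 4 instead of 3 libraries left 22 CT26-only and 1772 4T1-only regions. The members of this rule are therefore mostly not the regions that the equal-length lists give.

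**Figure D5:**
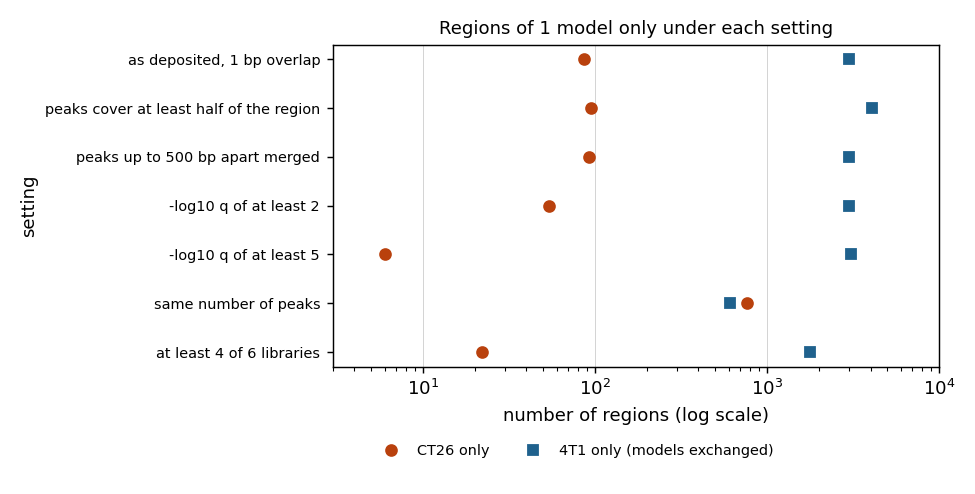
Points give the number of CT26-only regions (circles) and 4T1-only regions (squares) under each setting, on a log axis. CT26-only regions are fewer under every setting except with the same number of peaks per library, where they number 763 against 611.

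No gene locus with a member was called between niche and distal lung of CT26. Of 16823 protein-coding gene loci tested with limma, 88 (0.523%) were higher and 25 (0.149%) lower in CT26 Niche than in CT26 Distal at a Benjamini-Hochberg adjusted p under 0.05. Of the 56 member loci tested, 0 were called in either direction. At an unadjusted p under 0.05, 1 was higher and 6 were lower, against 1300 and 1894 of all loci. The median log2 difference of member loci was -0.05, against -0.04 over all loci tested. Zfp600 had the lowest adjusted p of the 56, with 2.96, 1.32 and 2.38 kb in CT26 Distal and 0.23, 1.15 and 0.396 kb in CT26 Niche. The groups did not overlap, and the log2 difference was -1.59 (limma, adjusted p = 0.0739). At Ccdc169 the log2 difference was -1.10, with the values given above, and all the length lay in the member, so it was not read as a test. The lengths at the member loci include the members' own peaks, and the rule asked for a distal one. Itgb6 had 5.12, 6.29 and 5.97 kb in CT26 Distal and 7.92, 6.14 and 7.00 kb in CT26 Niche before scaling to list length and a log2 difference of -0.01 after it (SE 0.1, limma, adjusted p = 0.983).

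In 4T1, where no member has a peak, 100 loci (0.594%) were higher and 5 (0.0297%) lower in niche than in distal lung, and 1 of the 56 member loci was called. At Cwh43, named for that count, the 3 4T1 Distal libraries had no peak in the locus and 4T1 Niche had 0.923, 1.14 and 1.03 kb (limma, adjusted p = 0.0454, n = 3 a group). These peaks lay outside the member. CT26 Niche had 0.994, 0.377 and 0.268 kb at the locus and CT26 Distal 0.403, 0 and 0 kb, with an adjusted p of 0.211 by limma. The log2 difference was 1.44 and depends on the 500 bp added. Without any single 4T1 library it was 1.38 to 1.48 and no longer passed (adjusted p from 0.117 to 0.186, limma), as without CT26 Niche 2 (1.45, adjusted p = 0.0587) and with 100 bp added (3.25, adjusted p = 0.0574). It was 0.20 with a flank of 2 kb (adjusted p = 0.794), 0.35 with 50 kb (0.277) and 0.52 with equal list lengths (0.823), and the adjusted p was 0.0255 with a replicate block. The difference between the models in the niche-distal contrast passed for 10 of the 16823 loci and for none of the 56, where the lowest adjusted p was 0.301, at Zfp600 (limma). Lengths at the 56 loci include the members' own peaks, which 4T1 libraries lack by the rule.

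Between the models, which the rule used, 569 loci (3.38%) were higher in CT26 Distal than in 4T1 Distal and 276 (1.64%) lower, and 6 of the 56 member loci were among the higher ones: Zfp600, Zfp992, Ccdc169, Nphp4, its neighbour Kcnab2 and the model 9530057J20Rik. Between the niche groups 31 (0.184%) were higher and 107 (0.636%) lower, with Kcnab2 among the higher ones. These counts include the members' own peaks and are given with no reading. The total in the distal comparison, 845, ranged from 26 to 1166 with 1 library left out. It was 28, 26 and 34 without 4T1 Distal 1, 2 and 3, and 64 with equal list lengths. At Kcnab2, a potassium channel subunit gene whose locus reaches the Nphp4 member, length was 1.64, 1.89 and 1.79 kb in CT26 Distal and 1.5, 1.42 and 1.40 kb in 4T1 Distal. Outside the member the means were 1.39 kb and 1.44 kb before scaling to list length, so the unscaled difference lay in the member. The call rests on scaled lengths, and the part outside the member was not computed on that scale. At Zfp600 the unscaled means outside the member were 1.07 kb in CT26 Distal, 0.0767 kb in CT26 Niche, 0.143 kb in 4T1 Distal and 0.242 kb in 4T1 Niche. There the CT26 Distal mean was the highest without the member too. The locus was reached through its member, which the rule chose with a distal CT26 peak, so these means are a description and no support.

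Of 31 gene lists with 454 symbols, covering cell types, alveolar states, signalling pathways and inflammation, 2 loci held a member: Itgb6 in the transitional alveolar list (1 of 16 genes) and Kcnip4, a potassium channel interacting protein, in the neuronal list (1 of 30). The Kcnip4 member (chr5:49090268-49090734, inside the gene, 434388 bp from its end) had 259, 0 and 207 bp in CT26 Distal and 457, 0 and 0 bp in CT26 Niche. No member lay in a locus of the AT2, alveolar type I, interferon, antigen presentation, Wnt, Notch, YAP or cell cycle lists. Over all 21631 protein-coding genes, 56 loci held a member. At so low a share most lists of this size would hold none, so these counts are descriptions. No gene locus held 3 or more members.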

How the data were processed

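Omni-ATAC-seq peak lists of 12 libraries of sorted mouse AT2 cells were used, 3 in each of 4 groups. The authors deposited 1 broad peak list per library; the submitters' processing notes name MACS2, bedtools and GRCm38, with no version or setting, and for the aligner and multiply mapping reads the sources used here say nothing. From the deposited lists were read the peak's start and end (bp), its fold enrichment over local background (a ratio), and the caller's −log10 of p and of q; all peaks reached a −log10 q of 1. The depth reached is unknown, so no counting interval was computed.

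Peaks on the 19 autosomes and X that overlapped by at least 1 bp were merged. A library held a region if any of its peaks overlapped it. Members within 500 kb of each other were linked into clusters. Positions came from the RefSeq annotation of GRCm38.p6, whose table gives no strand for genes, and windows within 1 kb of either gene end counted as a gene end. Sequences are RefSeq promoter windows; no genome was used. For each of 21631 protein-coding genes, length under peaks was summed from 10 kb before to 10 kb after the gene and scaled to the mean covered length, and 500 bp was added before taking log2. A locus was tested if at least 3 libraries had a peak there (16823 loci). The fit used limma 3.58.1 under R 4.3.3, with 4 means, one per group, eBayes with trend and Benjamini-Hochberg adjustment, so log2 differences depend on the 500 bp. The fit was tested on simulated data. Counts per library were compared by two-sided exact permutation tests. P-values measure the spread between pools of 5 lungs.

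Members described in full were the first 20 by the number of CT26 libraries and then by mean percentile, those at a promoter window in at least 5 CT26 libraries, and those in the loci of listed genes (452 of 454 symbols matched); gene models were counted. Others are named as chosen after their values were seen, or because a count was small. Members, lists, clusters and the check with libraries left out were chosen with earlier results of these data known. Alternatives varied the overlap, merging, peak threshold, list length, number of libraries, annotation, added length, scaling, flank and block, and left out each library.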

Additional observations from a re-analysis of the deposited data

How the results depend on the processing

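The number of CT26-only regions (86) was within 1.5 times under wider merging (92) and with peaks required to cover most of the region (at least 50%: 95, of which 33 were among the 86), and moved to 54 and 6 at a −log10 q of at least 2 and 5, 763 with the same number of peaks, 22 with at least 4 libraries, 36 to 138 with 1 library left out and 4 with 3 left out together, when all 3 remaining CT26 libraries must hold a region. The 4T1-only number (3013) moved to 611 with the same number of peaks and 1772 with at least 4 libraries, ranged from 2182 to 4290 with 1 library left out and was 5352 with the 3 left out together. Members held per library, niche minus distal (-5.67), moved to 0 and 0.333 at the 2 q thresholds and 1 with at least 4 libraries, was -96 with the same number of peaks (exact permutation p = 0.1, the smallest possible), and ranged from -12 to 3.33 with 1 library left out; with 3 libraries a site no setting could reach an exact p under 0.1, so the p-values show nothing of stability. The share of members at gene ends (8.14%) was 0 at a −log10 q of at least 5, 19.4 with the same number of peaks, 18.6 with all genes of the annotation, 13.7 with peaks over at least 50% of the region, 14.0 with a 2 kb window and 4.55 with at least 4 libraries, and the share outside genes (58.1%) was 37.9 with the same number of peaks and 37.2 with all genes. Median length (546.5 bp) was 422.5 bp at a −log10 q of at least 5, 717 bp with the same number of peaks and 682.5 bp with at least 4 libraries.

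Loci called in CT26 Niche against CT26 Distal (113) numbered 2027 without scaling, 309 with a flank of 50 kb and 37 to 117 with 1 library left out. In 4T1 Niche against 4T1 Distal (105) they numbered 62 with 100 bp added, 569 without scaling, 171 with 50 kb, 45 with the same number of peaks and 26 to 107 with 1 library left out. In CT26 Distal against 4T1 Distal (845) they numbered 4873 without scaling, 1802 with a flank of 2 kb, 64 with the same number of peaks and 26 to 1166 with 1 library left out. In CT26 Niche against 4T1 Niche (138) they numbered 2463 without scaling, 493 with 50 kb, 59 with the same number of peaks and 10 to 1036 with 1 library left out. The causes were not tested.

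Replicate numbers are shared by the groups, but same-numbered libraries did not deviate together (correlations across loci from -0.0903 to 0.0892, between sites and between models), so the numbers were not read as pairs. With a replicate block the niche minus distal difference was -5.67 (exact sign-flip permutation p = 0.75, smallest possible 0.25), and 8, 31, 60 and 74 loci were called in the 4 comparisons in the order above.

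Linked members (32) numbered 22 within 100 kb and 35 within 1 Mb, distances chosen after the data were seen. Without read counts, a region missing from a list cannot be told from one below the caller's threshold.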
